A study of Canis lupus familiaris with 11 samples.

Results

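Canine stromal vascular fraction (SVF) that had received activated platelet-rich plasma (PRP) and then 6 h at 37 °C was compared with SVF that had received neither, over all genes named on the array. SVF is the mixed pellet of stromal, vascular and immune cells left when adipose tissue is digested. PRP is plasma concentrated in platelets, whose granules hold chemokines and growth factors. All arrays of either kind were used, 4 with PRP and 4 without, which is 8 of the 11 in the series, and they came from visceral fat of dogs 2 and 3 as the titles number them. Each dog gave a number 1 and a number 2 array per condition. The labels describe both dogs in the same words, as a German Shepard mix, male and neutered, of 10 years, so whether 2 animals were sampled cannot be told from them. One company digested all of this fat and added the photo-activated PRP by methods it does not disclose, and the profiling laboratory did the incubation. The controls had no incubation. PRP, incubation and elapsed time therefore cannot be told apart. The other 3 arrays, of thawed SVF prepared by 3 companies, were left out.

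Mature adipocytes store triglyceride in droplets coated with perilipins and are mostly floated away when SVF is made. SVF keeps fibroblast-like progenitors, endothelial cells, pericytes and macrophages. Markers of these cells checked the labelled tissue. All 14 stromal and all 13 endothelial markers lay above the array medians, as did 10 of 11 macrophage markers and 8 of 14 T and NK cell markers. All 16 measured adipocyte markers did too, on arrays of a fraction from which mature adipocytes are meant to be removed. Of the platelet markers 5 of 9 lay above the medians, of the mesothelial markers 2 of 9, and of the erythroid markers 1 of 6. Over all 15947 genes 10090 lay above them. The T and NK, platelet, mesothelial and erythroid markers were thus above the medians no more often than genes at large.

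Values are log2 levels as deposited, from 1.60 to 14.8. Of 32391 features 16545 named 1 gene, and the brightest feature of each gene gave 15947 genes. Array medians were 6.76 to 6.77 for PRP and up to 6.85 for SVF. Differences are PRP minus SVF in log2 units, with the standard error (SE) of a limma model that has the dog as a block. P-values were adjusted over all features by the method of Benjamini and Hochberg, with a threshold of 0.05. The labels do not state that the number 1 and number 2 samples of a dog were prepared separately. The p-values therefore reflect the spread among these arrays alone, and that spread could be technical.

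The number 2 pairs, that is the number 2 PRP array set against the number 2 SVF array of the same dog, stood apart. A mean difference of 2-fold or more upwards was found for 329 genes in the number 2 pairs (2.06% of genes) and for 2 genes in the number 1 pairs (0.0125%), PPBP and MORN2. Downwards the counts were 27 genes (0.169%) and 30 genes (0.188%). The SD of the differences over genes was 0.41 in the number 2 pairs and 0.21 in the number 1 pairs. Over the 15947 genes, which are not independent replicates, the differences of the number 1 and number 2 pairs, each averaged over the dogs, had a Pearson correlation of 0.30. An interaction of number and condition, chosen after the data were seen, passed the adjusted threshold for 2 features (0.00617%) and had an unadjusted p below 0.05 for 3547 (11%). With number as a further term in the model, number 2 against number 1 passed the adjusted threshold for 90 features (0.278%) and PRP against SVF for 1. Number is not a term of the model used for the differences below, so most gene lists and families below are given by number as well, number 1 first.

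Over all features, 1 of 32391 passed the adjusted threshold (limma, 0.00309%) and no gene did. With PRP 1246 features (3.85%) were higher and 2451 (7.57%) lower at an unadjusted p below 0.05, where evenly spread p-values would give 1620 in all. Among genes the counts were 739 higher (4.63%) and 1032 lower (6.47%), of which 33 (0.207%) and 12 (0.0752%) differed by 2-fold or more. All 4 same-numbered differences were upward for 1907 genes (12%) and downward for 2499 (15.7%). For 311 genes (1.95%) every PRP array lay above every SVF array, and for 511 (3.2%) every one lay below. The balance of directions depended on the scaling. The mean was higher with PRP for 47.4% of genes and lower for 52.6% as deposited. After the arrays were centred on their medians it was higher for 61.5% and lower for 38.5%, and after repeated quantile normalization for 53.8% and 46.2%. At an unadjusted p below 0.05 centring gave 1422 genes higher (8.92%) and 529 lower (3.32%), and quantile normalization 1013 higher (6.35%) and 816 lower (5.12%).

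On the deposited scale bright and dimmer genes leaned in opposite directions. Among the 3190 genes with mean levels of 9.34 to 13.85, 246 were higher at an unadjusted p below 0.05 and 160 lower, and their median difference was 0.056. Among the 3189 genes at 5.70 to 7.07, 75 were higher and 198 lower, with a median of -0.062. The dimmest 3190 genes, at 2.38 to 5.70, had 50 higher and 79 lower, with a median of -0.0044. The typical SE of a single gene was 0.14 at 9.34 to 13.85 and 0.15 at 5.70 to 7.07. It does not measure the spread of a median over many genes.

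PPBP, which encodes the precursor of a neutrophil-attracting chemokine held in platelet granules, showed the largest difference of any gene in either direction. On the SVF arrays it stood at 7.74 and 7.32 in dog 2 (numbers 1 and 2) and at 7.30 and 6.65 in dog 3. On the PRP arrays it stood at 10.81 and 10.77 in dog 2 and at 9.28 and 8.99 in dog 3. The groups did not overlap, and all 4 pairs differed by nearly 2 units or more, from 1.98 to 3.45. The difference was 2.71 ± 0.256 (SE, n = 4 per condition), or 6.54-fold, with a limma adjusted p of 0.0653, which missed the threshold. PPBP passed in 3 of 11 alternative models and in 1 of 8 fits with 1 array left out. A model of 4 group means was 1 of those 3 and gave the same difference an adjusted p of 0.0295 (limma). PPBP was as marked in the number 1 pairs (2.52) as in the number 2 pairs (2.90), and the interaction with number was far from the threshold (limma adjusted p = 0.793). Over the 9 platelet markers the median difference was 0.10 (0.034 without the number 2 SVF array of dog 2 and 0.064 without its number 2 PRP array), and PPBP was the only one with an unadjusted p below 0.05.

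The feature that passed, number 14308441, names no gene in the annotation used and was chosen after its values were seen. Its SVF values were 3.73 and 3.70 in dog 2 and 3.53 and 3.41 in dog 3, and its PRP values were 1.98, 2.10, 1.82 and 2.05 in the same order. It fell by 1.61 ± 0.11 (SE, limma, adjusted p = 0.0103). These levels are near the bottom of the range of the array. With the 4 same-numbered pairs as a block 0 features passed the threshold. When each array was left out in turn, the feature passed in 1 of 8 cases, without the number 2 PRP array of dog 3, with adjusted p from 0.0276 to 0.117.

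**Figure D1:**
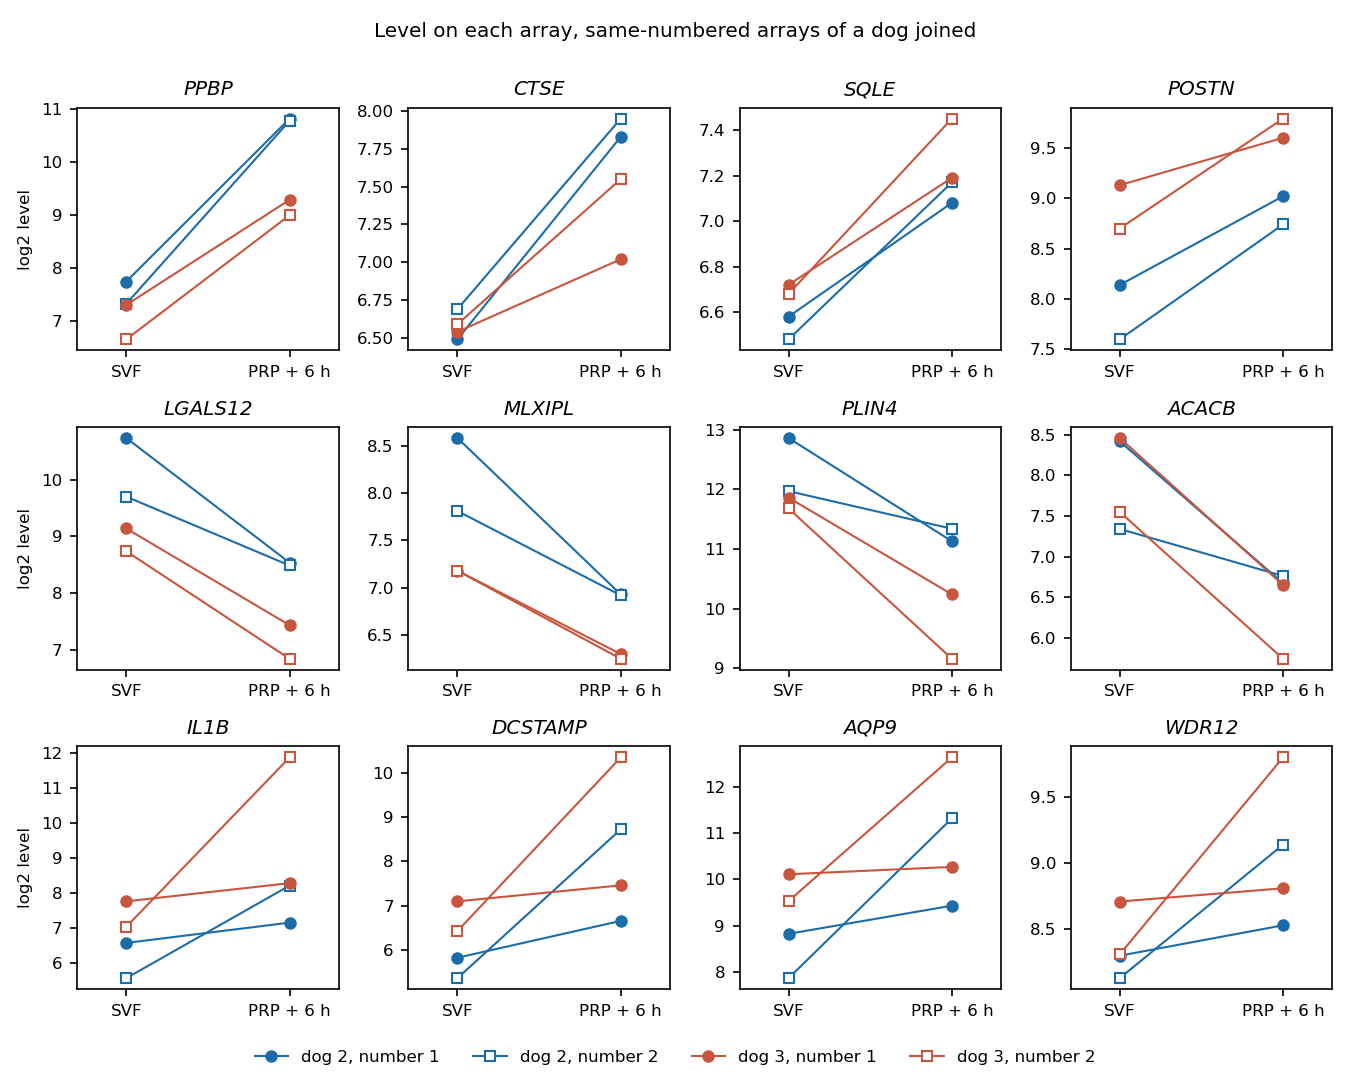
Level on the log2 scale (vertical axis) of 12 genes on the 4 SVF and 4 PRP arrays, with lines joining the same-numbered arrays of a dog. PPBP, CTSE and SQLE lay higher on every PRP array than on any SVF array, POSTN was higher in each pair, LGALS12, MLXIPL, PLIN4 and ACACB lay lower on every PRP array, and IL1B, DCSTAMP, AQP9 and WDR12 differed most in the number 2 pairs.

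Among the lower genes, those of lipid storage in fat cells led. LGALS12, a galectin found on the lipid droplets of adipocytes, had the largest difference downwards of all 15947 genes. Its SVF levels were 10.73 and 9.70 in dog 2 and 9.14 and 8.74 in dog 3, and its PRP levels were 8.54, 8.49, 7.44 and 6.85. No PRP array reached the lowest SVF array. The difference was -1.75 ± 0.238 (SE), a 3.36-fold lower level, with a limma adjusted p of 0.2. MLXIPL, the carbohydrate-sensing transcription factor that turns on fat synthesis, stood at 8.58, 7.81, 7.18 and 7.18 on the SVF arrays and at 6.93, 6.92, 6.30 and 6.25 on the PRP arrays, again without overlap. Its difference was -1.09 ± 0.176 (SE, limma adjusted p = 0.2).

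PLIN4, a droplet coat protein, had SVF levels of 12.86, 11.97, 11.86 and 11.68 and PRP levels of 11.13, 11.34, 10.24 and 9.16. Its groups did not overlap, and the gap was -1.62 ± 0.306 (SE). LPIN1, a phosphatidate phosphatase of triglyceride synthesis, stood at 11.60, 10.57, 10.33 and 10.22 in SVF against 9.90, 9.97, 9.25 and 8.39 with PRP, a difference of -1.30 ± 0.259 (SE). For both genes the limma adjusted p was 0.2, and the lowest value of all was on the number 2 PRP array of dog 3.

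ACACB, the acetyl-CoA carboxylase that restrains fat burning in mitochondria, stood at 8.42, 7.34, 8.46 and 7.55 in SVF and at 6.67, 6.76, 6.65 and 5.74 with PRP, with no overlap and a difference of -1.48 ± 0.325 (SE, limma adjusted p = 0.235). PNPLA3, a lipid droplet lipase, had SVF levels of 9.44, 8.42, 8.79 and 8.36 and PRP levels of 8.07, 8.13, 7.52 and 6.50, also without overlap (-1.20 ± 0.305 SE, limma adjusted p = 0.293). PFKFB1, an enzyme that sets the rate of glycolysis, ran from 7.17 to 9.79 in SVF and from 5.47 to 7.79 with PRP, so its groups overlapped while each pair was lower (-1.54 ± 0.343 SE, limma adjusted p = 0.24).

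All 16 adipocyte markers measured of 18 listed had lower means with PRP. FABP4 and ADRB3 had no feature of their own. None passed the adjusted threshold, and 12 of 16 had an unadjusted p below 0.05, where 6.47% of all genes were lower at that p. Of the 16, 14 were lower in every pair, where 15.7% of all genes were. The list was written with earlier results of these data known, so its direction is a description. Its median difference was -0.66, against -0.014 over all genes, and it lay between -0.74 and -0.56 with any 1 array left out. It was alike by number, -0.68 in the number 1 pairs and -0.66 in the number 2 pairs. Besides PLIN4 and ACACB, PLIN1 (a droplet coat protein, -1.21 ± 0.23 SE), LIPE (hormone-sensitive lipase, -0.74 ± 0.143 SE), DGAT2 (the last step of triglyceride synthesis, -1.02) and LEP (leptin, -0.91) belonged to the 12. LPL, the lipase that takes up blood lipid, differed least (-0.029). In bulk RNA fewer cells of a type and less RNA per cell cannot be told apart. The mean level of the 16 markers was 11.12 and 10.81 on the SVF arrays of dog 2 and 10.16 and 9.87 on those of dog 3, and it was 10.39, 10.56, 9.29 and 8.80 on the matching PRP arrays. These means were higher in dog 2 than in dog 3 on every matching array, and lower with PRP in every pair.

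**Figure D2:**
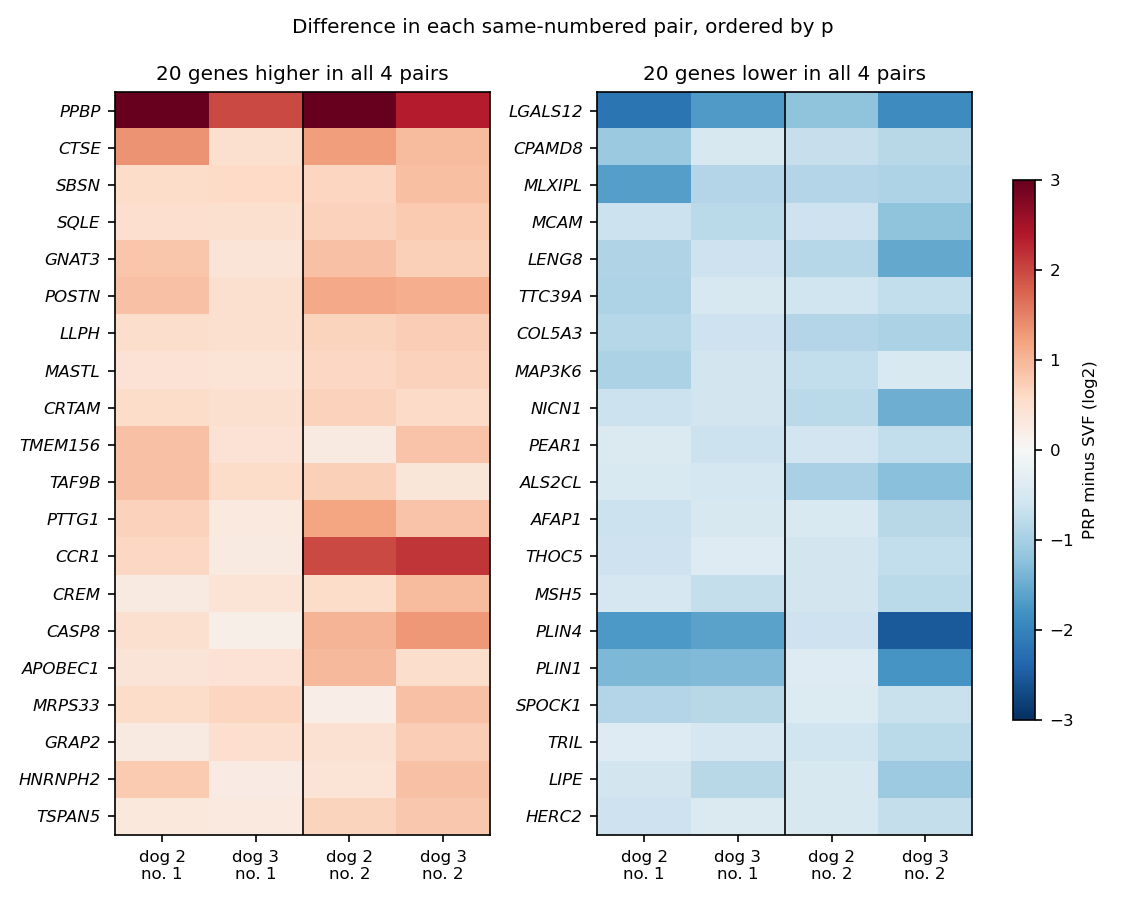
Difference PRP minus SVF on the log2 scale (colour) in each of the 4 same-numbered pairs (columns) for the 20 genes per direction with the smallest p among those with 1 sign in all pairs (rows). For the higher genes the number 2 columns were the stronger for 17 of 20, and for the lower genes for 12 of 20.

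The rest of the 20 lower genes with the smallest p were mixed in kind. All had a limma adjusted p of 0.2, and their differences ran from -1.75 to -0.56. CPAMD8, a relative of alpha-2-macroglobulin, had SVF levels of 7.85, 7.56, 7.36 and 7.60 and PRP levels of 6.74, 6.86, 6.88 and 6.76, so that the groups were apart and the PRP group was narrow (-0.78 ± 0.127 SE). TTC39A stood at 8.67, 8.48, 8.47 and 8.64 in SVF and at 7.74, 7.89, 7.98 and 7.91 with PRP (-0.69 ± 0.113 SE), and LENG8 at 9.41, 9.28, 9.06 and 9.72 against 8.50, 8.42, 8.44 and 8.19 (-0.98 ± 0.16 SE). In TTC39A the values of both dogs lay close together within a condition. On the SVF arrays the values ran from 7.36 to 7.85 in CPAMD8 and from 9.06 to 9.72 in LENG8.

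COL5A3, a chain of type V collagen, stood at 8.42, 8.52, 7.82 and 8.35 in SVF and at 7.57, 7.65, 7.21 and 7.41 with PRP, without overlap (-0.82 ± 0.139 SE). MAP3K6, a stress-activated kinase, differed by -0.67, PEAR1, a platelet and endothelial receptor, by -0.60, THOC5, of the mRNA export complex THO, by -0.57, HERC2, a ubiquitin ligase, by -0.56, and SPOCK1, a matrix proteoglycan, by -0.70. In 13 of the 20 genes the groups did not overlap, where 3.2% of all genes lay lower on every PRP array. The 20 were picked by p and sign, so this count is a description. The median difference of the 20 was -0.72 in the number 1 pairs and -0.78 in the number 2 pairs. Of the 10 lower genes with the largest differences at an unadjusted p below 0.05, 0 were lower by more in the number 2 pairs. Their median was -1.48 in the number 1 pairs and -1.08 in the number 2 pairs. DMD, which encodes dystrophin (-1.18 ± 0.32 SE), and SLC1A3, a glutamate transporter (-1.06 ± 0.311 SE), were among those 10.

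MCAM, a cell adhesion molecule of pericytes and endothelium, stood at 9.98, 9.92, 8.92 and 8.94 on the SVF arrays and at 9.33, 9.29, 8.13 and 7.74 on the PRP arrays. Each pair was lower, by 0.63 to 1.20 units, while the groups overlapped across the dogs (-0.82 ± 0.133 SE, limma adjusted p = 0.2). The means of 11 of 12 markers of pericytes and smooth muscle were lower, 6 at an unadjusted p below 0.05 and none past the adjusted threshold, where 52.6% of all genes had lower means and 6.47% were lower at that p. MYLK, myosin light chain kinase, differed by -0.61 ± 0.128 (SE) and ACTA2, smooth muscle actin, by -0.60 ± 0.155 (SE). The list median was -0.33, with -0.26 in the number 1 pairs and -0.48 in the number 2 pairs. Endothelial markers had lower means in 10 of 13 cases, with VWF (-0.50) alone at an unadjusted p below 0.05. Their median of -0.30 was -0.029 in the number 1 pairs and -0.55 in the number 2 pairs, and it was -0.13 without the number 2 PRP array of dog 3. Of 14 stromal markers 9 were lower and 5 higher (median -0.11, -0.087 and -0.093 by number, -0.049 without the number 2 PRP array of dog 3 and -0.058 without its number 1 SVF array), with COL1A1 lower (-0.28) and DPP4 higher (0.56) at an unadjusted p below 0.05.

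The 20 genes with the smallest p among those higher in all 4 pairs were mixed in kind, and beside PPBP and CCR1 the largest difference was that of CTSE. CTSE encodes cathepsin E, an aspartic protease of endosomes. Its SVF levels were 6.49 and 6.69 in dog 2 and 6.54 and 6.59 in dog 3, and its PRP levels were 7.83, 7.95, 7.02 and 7.55. Every PRP array exceeded every SVF array, and the SVF arrays lay close together. The difference was 1.01 ± 0.172 (SE), or 2.01-fold, with a limma adjusted p of 0.2. SQLE, the squalene epoxidase of cholesterol synthesis, stood at 6.58, 6.48, 6.72 and 6.68 in SVF and at 7.08, 7.17, 7.19 and 7.45 with PRP, without overlap (0.61 ± 0.109 SE, limma adjusted p = 0.2).

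POSTN, the matrix protein periostin, had SVF levels of 8.14, 7.60, 9.13 and 8.70 and PRP levels of 9.02, 8.74, 9.60 and 9.79. It was higher in each pair although its groups overlapped across the dogs (0.89 ± 0.168 SE, limma adjusted p = 0.2). LLPH ran from 9.81 to 9.89 over the SVF arrays and from 10.31 to 10.63 over the PRP arrays (0.61 ± 0.115 SE), a narrow range in both groups. GNAT3, a G protein subunit of taste cells, stood at 3.88 to 4.35 in SVF and at 4.42 to 5.19 with PRP (0.70 ± 0.131 SE). Both had a limma adjusted p of 0.2.

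CASP8, a caspase that starts cell death from surface receptors, ran from 8.90 to 9.39 in SVF and from 9.56 to 10.21 with PRP (0.75 ± 0.183 SE). PTTG1, securin, ran from 7.33 to 8.05 in SVF and from 8.14 to 8.52 with PRP (0.76 ± 0.181 SE). CRTAM, a receptor of T and NK cells, ran from 4.90 to 5.34 in SVF and from 5.46 to 5.92 with PRP (0.58 ± 0.127 SE). None of these 3 genes overlapped between conditions, and their limma adjusted p-values were 0.269, 0.269 and 0.237. SBSN (0.67), CREM, a cyclic AMP-responsive transcription factor (0.55), APOBEC1, a cytidine deaminase (0.58), and TSPAN5, a tetraspanin (0.52), were also in the set. Of these 20 genes 9 did not overlap between conditions, where 1.95% of all genes lay higher on every PRP array. The genes were picked by p and sign, so this count is a description. Of the 20, 17 were higher by more in the number 2 pairs. The 20 had median differences of 0.51 in the number 1 pairs and 0.74 in the number 2 pairs. Their adjusted p-values lay between 0.0653 and 0.285.

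The 10 higher genes with the largest differences among those with an unadjusted p below 0.05 were of another kind. All 10 were higher by more in the number 2 pairs, and their median was 0.34 in the number 1 pairs and 3.30 in the number 2 pairs. PPBP is the 1 gene they share with the 20 above. IL1B, which encodes the inflammatory cytokine interleukin-1 beta, stood at 6.57 and 5.56 in dog 2 SVF and at 7.76 and 7.03 in dog 3 SVF. With PRP it stood at 7.15 and 8.21 in dog 2 and at 8.28 and 11.88 in dog 3, so the number 2 PRP array of dog 3 was well above the rest. The mean difference was 2.15 ± 0.715 (SE, limma adjusted p = 0.362), made up of 0.54 in the number 1 pairs and 3.75 in the number 2 pairs.

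DCSTAMP, a membrane protein needed for the fusion of macrophage-lineage cells, had SVF levels of 5.83, 5.37, 7.10 and 6.43 and PRP levels of 6.66, 8.72, 7.46 and 10.34. AQP9, a water and glycerol channel of leukocytes, had SVF levels of 8.82, 7.86, 10.11 and 9.53 and PRP levels of 9.43, 11.32, 10.27 and 12.64. In both genes the 2 number 2 PRP arrays were the high ones within their dog. The differences were 2.11 ± 0.635 (SE) for DCSTAMP and 1.84 ± 0.572 (SE) for AQP9, with limma adjusted p-values of 0.328 and 0.341.

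SERPINB2, an inhibitor of plasminogen activators, stood at 5.75, 5.39, 7.26 and 6.29 in SVF and at 6.02, 8.38, 7.44 and 11.35 with PRP. CCL7, a monocyte chemokine, stood at 8.73, 7.70, 10.68 and 9.83 in SVF and at 9.24, 11.61, 10.64 and 12.77 with PRP, so the difference of the number 1 pair of dog 3 was close to 0 (-0.034). Their mean differences were 2.13 ± 0.833 (SE) and 1.83 ± 0.618 (SE). MMP1, interstitial collagenase, was near the bottom of the scale in SVF, from 3.89 to 4.26, and its PRP levels were 4.48, 6.47, 4.41 and 8.15 (1.81 ± 0.747 SE). IL7R, the interleukin-7 receptor (1.55 ± 0.505 SE), SLAMF7, a leukocyte receptor (1.58 ± 0.568 SE), and SAMSN1, an adaptor protein of leukocytes (1.52 ± 0.385 SE), complete the 10. SAMSN1 and MMP1 join PPBP as the 3 without overlap, where 1.95% of all genes lay higher on every PRP array. The 10 were picked by size and p, so this count is a description.

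**Figure D3:**
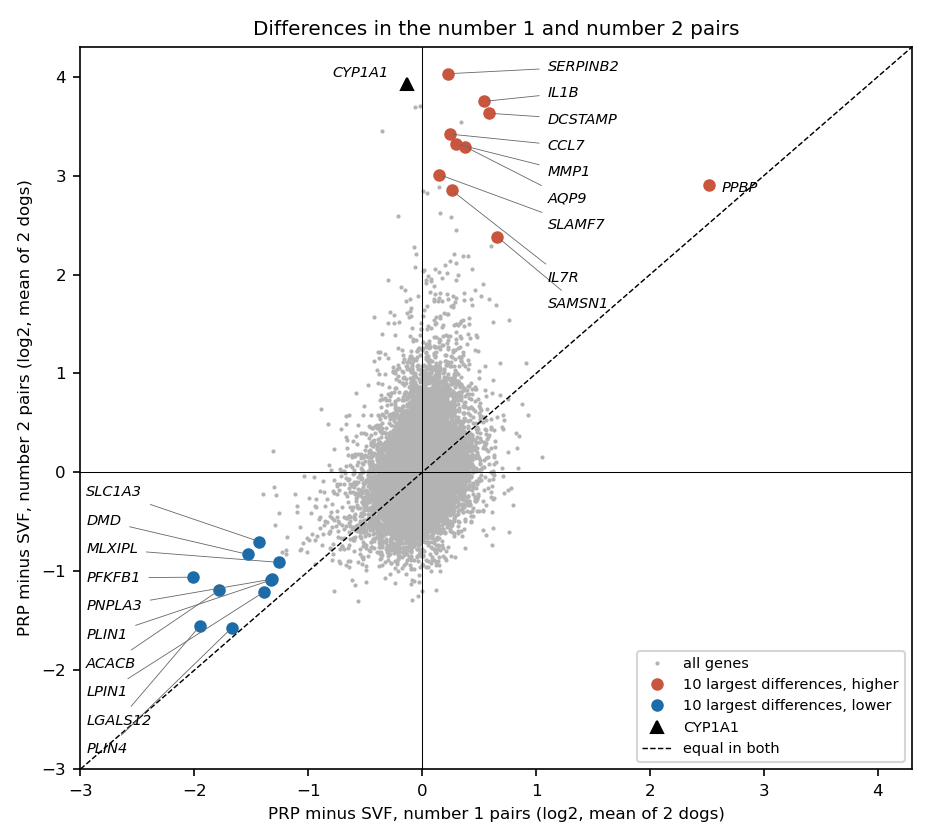
Mean difference PRP minus SVF on the log2 scale in the number 1 pairs (horizontal axis) and in the number 2 pairs (vertical axis), 1 point per gene for 15947 genes. PPBP lay far out on both axes (2.52 and 2.90), while IL1B (0.54 and 3.75) and SERPINB2 (0.23 and 4.03) were far out on the vertical axis only, and LGALS12 lay low on both (-1.95 and -1.55).

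The interaction of number and condition was tested for these genes across all features. Its adjusted p was 0.151 for DCSTAMP, AQP9, CCL7 and SLAMF7, 0.268 for SERPINB2, 0.171 for CCR1 and 0.391 for IL1B (limma), so none passed. CCR1, a receptor for CC chemokines, is one of the 20 genes higher in all pairs (1.25 ± 0.301 SE), and its pair differences were 0.61 and 1.99 in dog 2 and 0.27 and 2.14 in dog 3. Of the 2 features that passed, 1 names CYP1A1, a xenobiotic-metabolising enzyme induced through the aryl hydrocarbon receptor, and was chosen after its values were seen. CYP1A1 stood at 5.93, 5.47, 4.87 and 4.66 on the SVF arrays and at 5.52, 9.49, 5.02 and 8.51 on the PRP arrays. The number 2 PRP arrays of both dogs were thus high and the number 1 PRP arrays were not, with pair differences of -0.41 and 4.02 in dog 2 and 0.14 and 3.85 in dog 3. The interaction was 4.07 (limma, adjusted p = 0.0427). The other feature, 14479471, names no gene. Its interaction was 3.91 (limma, adjusted p = 0.0427). Its SVF values were 6.86 and 3.88 in dog 2 (numbers 1 and 2) and 7.56 and 4.84 in dog 3. Its PRP values were 5.29 and 6.54 in dog 2 and 6.54 and 7.42 in dog 3. In this feature the SVF arrays differed by number more than the PRP arrays did, unlike in CYP1A1.

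Marker levels of leukocytes were set beside these genes. The mean level of 11 macrophage markers was 10.05 and 9.22 in dog 2 SVF and 10.23 and 9.77 in dog 3 SVF, and it was 10.36, 9.59, 10.22 and 9.92 on the matching PRP arrays. The difference of this mean was under 0.4 units in every pair, while single markers differed by more, such as VSIG4 (1.02 and 0.55 in the number 2 pairs of dogs 2 and 3). None of the 11 had an unadjusted p below 0.05 over all arrays (8 higher, 3 lower, median 0.27, and 0.16 without the number 2 SVF array and 0.18 without the number 1 PRP array of dog 2). On the number 2 arrays alone 5 of the 11 were higher at that p (median 0.28), where 10.4% of all genes were, and on the number 1 arrays alone 1 was (median 0.11), where 1.42% were. The summed level of the list was 13.69 to 14.61 on the SVF arrays and 14.12 to 14.70 on the PRP arrays. Of 11 neutrophil markers 8 were higher and 3 lower, none at an unadjusted p below 0.05. Their median was 0.18, and 0.057 without the number 1 SVF array of dog 2. In the number 1 pairs 9 were higher and 2 lower (median 0.21), and in the number 2 pairs 6 and 5 (median 0.034). MMP9 (1.81), a gelatinase of neutrophil granules, ran against these medians, with -0.06 in the number 1 pairs and 3.69 in the number 2 pairs. Of 14 T and NK markers 12 were higher (median 0.35, and 0.20 without the number 1 PRP array of dog 2), with IL7R, CCR7 (1.21) and CD5 (0.35) at an unadjusted p below 0.05. Their median was 0.28 in the number 1 pairs and 0.25 in the number 2 pairs. Higher means were also found for 7 of 9 markers of B and plasma cells, 3 of them at an unadjusted p below 0.05. Their median of 0.26 was 0.30 and 0.25 by number. Of the mast cell markers 7 of 8 had higher means, 0 at that p. Erythroid markers divided as 3 higher and 3 lower. Of these, 2 were higher at an unadjusted p below 0.05, AHSP (0.90 ± 0.298 SE) and ALAS2 (0.53 ± 0.136 SE), and 0 were lower. Neither passed the adjusted threshold. Over all genes 47.4% had higher means and 4.63% were higher at an unadjusted p below 0.05. The part of cell makeup in these differences was not tested.

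Over all genes 51.4% differed upwards by more in the number 2 pairs than in the number 1 pairs, and 48.6% downwards. Of the 739 genes higher at an unadjusted p below 0.05, 667 (90.3%) were higher by more in the number 2 pairs, with medians of 0.22 and 0.66 in the number 1 and number 2 pairs. Of the 1032 lower genes 759 (73.5%) were lower by more in the number 2 pairs, with medians of -0.30 and -0.49. Both sets were chosen by p on the mean of all pairs, and the number 2 differences have the wider spread, so these shares are a description. The number 1 arrays alone gave 226 genes higher (1.42%) and 498 lower (3.12%) at that p, and the number 2 arrays alone 1660 higher (10.4%) and 1025 lower (6.43%).

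Genes of ribosome assembly followed this split. Ribosomes are built in the nucleolus by RNA polymerase I and a set of processing factors, and growing cells hold these factors at high levels. Of 33 such genes measured of 34 listed, 30 had higher means with PRP and 3 lower means, and 8 had an unadjusted p below 0.05, all higher, where 4.63% of genes were. None passed the adjusted threshold. The list median was 0.33 as a whole, 0.0087 in the number 1 pairs and 0.67 in the number 2 pairs, and 31 of 33 were higher by more in the number 2 pairs. In the number 1 pairs 18 were higher and 15 lower, 0 at an unadjusted p below 0.05. In the number 2 pairs 30 were higher, 24 of them at that p. Without the number 2 PRP array of dog 3 the median was 0.20, and without its number 1 PRP array it was 0.52. For 19 of the 33 the interaction had an unadjusted p below 0.05 with the number 2 pairs higher, where 7.43% of genes did.

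NHP2, a protein of the RNA-guided pseudouridine complexes, was 1 of the 2 that differed by more in the number 1 pairs. It stood at 7.99, 8.15, 8.42 and 8.36 in SVF and at 8.66, 8.46, 8.61 and 8.66 with PRP, without overlap (0.37 ± 0.115 SE, limma adjusted p = 0.344). FBL, the methyltransferase fibrillarin, stood at 9.53, 9.64, 9.90 and 9.71 in SVF and at 9.97, 10.20, 9.95 and 10.47 with PRP (0.45 ± 0.144 SE, limma adjusted p = 0.35), likewise without overlap. POLR1C, a subunit of RNA polymerases I and III, differed by 0.51 and WDR12, a factor of the large subunit, by 0.71, of which 0.16 in the number 1 pairs and 1.25 in the number 2 pairs. The UTP genes, which act on the small subunit, had the highest median of 184 families defined by symbol (0.40). All 10 were higher, 5 at an unadjusted p below 0.05 (4.63% of all genes), and UTP4 and UTP20 among them are also on the list above. UTP6 stood at 7.98 to 8.37 in SVF and at 8.53 to 8.98 with PRP (0.52 ± 0.148 SE), and UTP14A differed by 0.43 ± 0.138 (SE). Their family median was 0.086 in the number 1 pairs and 0.60 in the number 2 pairs.

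The other 5 of the 6 families with the highest medians were CNOT, HSPA, SERPINB, PSMD and EXOSC. CNOT genes, of the complex that shortens poly(A) tails, were higher in 10 of 11 cases (median 0.27, and 0.16 without the number 2 SVF array of dog 3), with CNOT2 at 0.33. Their median was 0.023 in the number 1 pairs and 0.43 in the number 2 pairs. PSMD genes, of the proteasome cap, were higher in 14 of 14 cases, 3 at an unadjusted p below 0.05 (4.63% of all genes), with PSMD12 at 0.53 and PSMD14 at 0.48. Their median of 0.21 was 0.033 in the number 1 pairs and 0.41 in the number 2 pairs. EXOSC genes, of the RNA exosome, were higher in 7 of 10 cases, 5 at that p, with EXOSC8 (0.54 ± 0.148 SE) and EXOSC4 (0.32 ± 0.116 SE) free of overlap between conditions. Their median of 0.20 was 0.16 in the number 1 pairs and 0.31 in the number 2 pairs. HSPA genes, chaperones of the heat shock class, had a median of 0.25 (8 of 10 higher, 0.13 without either the number 2 PRP or the number 1 SVF array of dog 2, and 0.14 without the number 2 PRP array of dog 3), and SERPINB genes, intracellular protease inhibitors, of 0.22 (7 of 10 higher, and 0.13 without the number 2 PRP array of dog 3). By number these medians were 0.075 and 0.40 for HSPA and 0.066 and 0.37 for SERPINB. These families were picked for their medians, so the medians and the counts of higher members are a description. Over all genes 47.4% had higher means.

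Iron, amino acid and lysosomal genes had smaller list medians, again with larger ones in the number 2 pairs. Of 27 genes of iron and haem handling 18 were higher, 5 at an unadjusted p below 0.05 (4.63% of all genes), and the median of 0.20 was -0.026 in the number 1 pairs and 0.41 in the number 2 pairs. BLVRB, a biliverdin reductase, stood at 9.51, 9.62, 9.64 and 9.30 in SVF and at 10.08, 10.01, 9.71 and 10.20 with PRP (0.48 ± 0.143 SE). FLVCR1, described as a haem exporter, ran from 7.48 to 7.97 in SVF and from 8.09 to 8.43 with PRP (0.46 ± 0.141 SE). These 2 genes, FTL, the ferritin light chain (0.33), and SLC11A1, a phagosomal metal transporter (0.80), were the 4 of the 27 that lay higher on every PRP array, as 1.95% of all genes did. SLC25A37, the mitochondrial iron importer, was lower (-0.39).

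Of 25 amino acid transporters 16 were higher and 9 lower, and 1 and 2 of them had an unadjusted p below 0.05, which is near the shares over all genes (4.63% and 6.47%). SLC38A1, a glutamine transporter, was higher (0.76 ± 0.246 SE) while SLC1A3 was lower. The median of 0.14 was -0.0055 in the number 1 pairs, 0.38 in the number 2 pairs and 0.09 without the number 2 PRP array of dog 3. Of 19 aminoacyl-tRNA synthetases 15 were higher (median 0.10, -0.022 and 0.35 by number, 0.17 without the number 1 PRP array of dog 3 and 0.16 without its number 1 SVF array), among them TARS1 (0.40) and FARSB (0.43), whose groups did not overlap. Lysosomal and phagocyte lipid genes were higher in 17 of 23 cases (median 0.25, and 0.13 without the number 2 SVF array of dog 2). In the number 1 pairs their median was 0.055 and none of the 23 had an unadjusted p below 0.05, and in the number 2 pairs it was 0.40 and 10 were higher at that p. CTSS, a cathepsin of antigen-presenting cells, differed by 0.58 ± 0.221 (SE) and CTSK, a collagen-degrading cathepsin, by 0.28 ± 0.108 (SE).

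**Figure D4:**
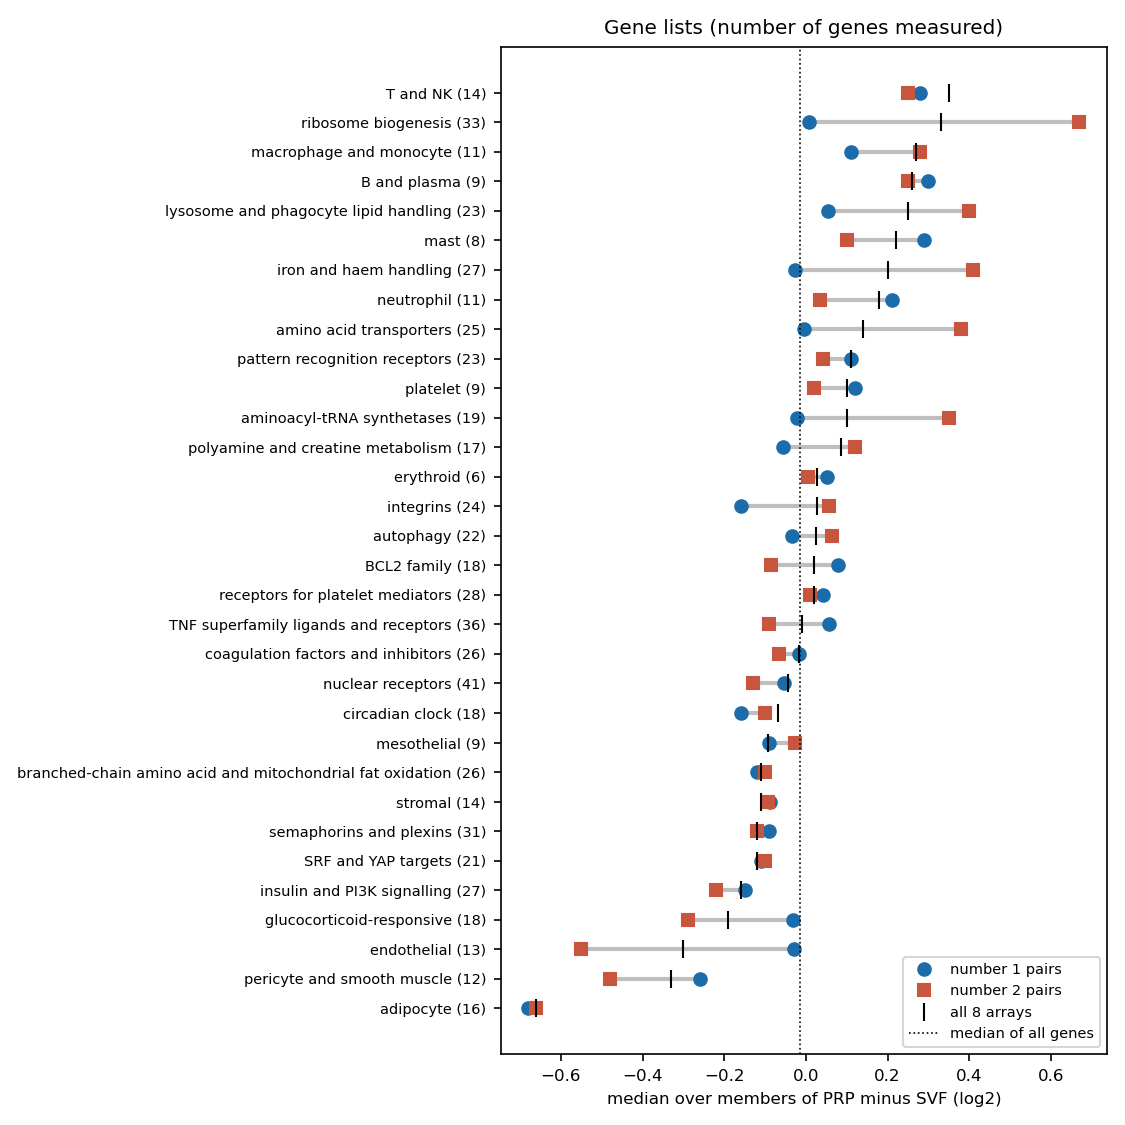
Median over the measured members of each gene list of the difference PRP minus SVF on the log2 scale (horizontal axis), for all pairs and for the number 1 and number 2 pairs apart (marks). Adipocyte markers lay at -0.66 by all and at -0.68 and -0.66 by number, whereas ribosome biogenesis lay at 0.33 by all and at 0.0087 and 0.67 by number.

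Clock genes and genes known to respond to glucocorticoids held several lower members. PER3, a repressor of the circadian clock, stood at 8.48, 8.16, 8.19 and 8.21 in SVF and at 7.86, 7.83, 7.90 and 7.63 with PRP, without overlap (-0.45 ± 0.12 SE, limma adjusted p = 0.298). It differed by -0.45 in the number 1 and in the number 2 pairs alike. PER2 stood at 8.26, 8.28, 8.62 and 8.84 in SVF and at 7.85, 7.76, 8.40 and 7.73 with PRP (-0.56 ± 0.16 SE). HLF, a clock output factor, differed by -0.36, also without overlap. Of the 18 clock genes 10 had lower means, near the 52.6% of all genes. At an unadjusted p below 0.05, 5 were lower (6.47% of all genes) and 0 higher, and none passed the adjusted threshold. In the number 1 pairs 16 of the 18 were lower, and in the number 2 pairs 11 were. The list median was -0.069 as deposited (-0.16 and -0.10 by number) and 0.0046 after centring. Its sign thus changed with the scaling, as did that of the median of all genes (-0.014 and 0.059). The list median lay below that of all genes on both scales. The sources used here do not give the time of day of sampling.

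KLF15, a transcription factor induced by glucocorticoids and active in adipocytes, stood at 7.89, 7.58, 7.25 and 7.26 in SVF and at 7.11, 7.21, 6.92 and 6.43 with PRP, without overlap (-0.58 ± 0.14 SE, limma adjusted p = 0.269). ZBTB16 (-0.62 ± 0.178 SE) and KLF9 (-0.69 ± 0.241 SE), transcription factors that glucocorticoids also induce, were lower in each pair, KLF9 by 0.093 in the mean of the number 1 pairs and by 1.29 in the mean of the number 2 pairs. Of 18 glucocorticoid-responsive genes 12 were lower and 6 higher, and 4 and 2 of them had an unadjusted p below 0.05, against 6.47% and 4.63% of all genes. The list median of -0.19 was -0.031 in the number 1 pairs, -0.29 in the number 2 pairs and 0.025 without the number 2 PRP array of dog 3.

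Genes of insulin and PI3K signalling had lower means in 21 of 27 cases (median -0.16, -0.15 and -0.22 by number, and -0.10 without the number 2 PRP array of dog 3). SLC2A4, the insulin-regulated glucose transporter (-0.47), AKT2, the insulin-activated kinase (-0.56), TSC2, a brake on mTOR (-0.36), and MTOR itself (-0.25) were 4 lower members at an unadjusted p below 0.05 (6.47% of all genes). PIK3CG (0.73) and PIK3CB (0.64), catalytic PI3K subunits, were higher at that p (4.63% of all genes). Of 26 genes of branched-chain amino acid and fat oxidation 18 were lower, 5 at an unadjusted p below 0.05 (6.47% of all genes) with ECI1 (-0.34) and CPT1B (-0.46) among them, and DBT (0.52) was higher. Their median of -0.11 was -0.12 and -0.10 by number, -0.032 without the number 2 PRP array of dog 3 and -0.052 without its number 1 SVF array.

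Nuclear receptors were lower in 23 of 41 cases, near the 52.6% of all genes, with 6 lower (6.47% of all genes) and 1 higher (4.63%) at an unadjusted p below 0.05. Their median of -0.044 (-0.053 and -0.13 by number) turned to 0.029 after centring, while that of all genes turned from -0.014 to 0.059. NR2F6 (-0.57), PPARA, the fatty acid sensor of fat oxidation (-0.60), ESR1, an oestrogen receptor (-0.54), RARG (-0.39) and THRA (-0.36) were among the lower, and NR4A3 (0.33) was the higher. Of 31 semaphorins and plexins, guidance molecules and their receptors, 22 were lower, with SEMA3B at -0.53. Of 21 targets of SRF and YAP, transcription factors that answer to cell shape and tension, 15 were lower (median -0.12, -0.11 and -0.10 by number, -0.058 without the number 2 PRP array of dog 3 and -0.18 without the number 2 SVF array of dog 2), with AMOTL2 (-0.55) free of overlap and AMOTL1 (-0.44), FHL1 (-0.46) and AJUBA (-0.38) also at an unadjusted p below 0.05.

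Receptors that bind platelet mediators leaned neither way. Of 28 measured 15 were higher and 13 lower, with a median of 0.019 (0.043 and 0.011 by number). TBXA2R, the thromboxane receptor, was lower in all PRP arrays than in all SVF arrays (-0.43), and P2RX7 (0.49) and P2RX4 (0.46), receptors for extracellular ATP, were higher at an unadjusted p below 0.05. Coagulation factors and inhibitors divided as 13 higher and 13 lower, with THBD, thrombomodulin (-0.54), and F11 (-0.42) lower at that p. Of 36 TNF superfamily genes 17 were higher and 19 lower, with NGFR (-0.51), TNFRSF1A (-0.29) and TNFRSF21 (-0.35) lower and TNFRSF9 (0.72) higher at that p. The medians of these last 2 lists, -0.018 and -0.0092, turned to 0.055 and 0.064 after centring, while that of all genes turned from -0.014 to 0.059. As deposited the medians by number were -0.016 and -0.067 for coagulation and 0.057 and -0.09 for the TNF superfamily. Integrins divided as 12 higher and 12 lower, with ITGB4 at -0.81. In the number 1 pairs 5 integrins were higher and 19 lower (median -0.16), and in the number 2 pairs 12 and 12 (median 0.056). Autophagy genes divided as 11 and 11 (medians -0.033 and 0.064 by number), with ULK1, the kinase that starts autophagy, lower without overlap (-0.42). Of 18 BCL2 family genes 14 had higher means in the number 1 pairs and 7 in the number 2 pairs. BCL2A1, an anti-apoptotic member, was higher (0.73) and the only 1 of the 18 at an unadjusted p below 0.05. Pattern recognition receptors were higher in 16 of 23 cases, with TREM1 (0.61) higher and NOD1 (-0.37) lower at that p. Their median of 0.11 was 0.0059 without the number 1 PRP array of dog 2 and 0.22 without its number 2 PRP array. Of 17 genes of polyamine and creatine metabolism 10 were higher, with ARG2 (0.87) and PAOX (-0.48) free of overlap in opposite directions. None of the genes in these lists passed the adjusted threshold. Over all genes 47.4% had higher and 52.6% lower means, and 4.63% were higher and 6.47% lower at an unadjusted p below 0.05.

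Among the families with the lowest medians were HDAC, ADCY, HOXA, CACNA and INPP, from -0.32 to -0.22. They were picked for their medians, so the medians and the counts of lower members are a description. Over all genes 52.6% had lower means. All 10 HOXA genes, body position transcription factors, were lower, 4 at an unadjusted p below 0.05 (6.47% of all genes), with a median of -0.24 that was alike by number (-0.27 and -0.25). HOXA6 stood at 10.57, 9.78, 9.35 and 8.90 in SVF and at 9.61, 9.45, 8.82 and 7.94 with PRP, lower in each pair with overlap across the dogs (-0.70 ± 0.241 SE). Adenylyl cyclases (ADCY), which make cyclic AMP, were lower in 9 of 10 cases (median -0.26, -0.21 and -0.19 by number), led by ADCY5 (-0.92 ± 0.226 SE) and ADCY6 (-0.69 ± 0.153 SE). Calcium channel subunits (CACNA) were lower in 12 of 14 cases, 6 at that p, with CACNA2D1 at -0.53 and a family median of -0.22 (-0.19 and -0.28 by number). Inositol phosphatases (INPP) were lower in 8 of 10 cases, with INPP5B at -0.55, and their median of -0.22 was -0.095 and -0.34 by number and -0.12 without the number 2 PRP array of dog 3. Histone deacetylases (HDAC) were lower in 9 of 11 cases, with HDAC10 (-0.42) and HDAC4 (-0.37), but their median of -0.32 was -0.13 and -0.36 by number and -0.065 without that array.

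The dogs were compared in their response. The interaction of dog and condition passed the adjusted threshold for 0 features (limma) and had an unadjusted p below 0.05 for 619 (1.91%). The median difference over all genes was 0.02 in dog 2 and -0.043 in dog 3. Adipocyte markers had a median of -0.46 in dog 2 and -0.88 in dog 3, and ribosome biogenesis genes of 0.32 and 0.37. PPBP differed by about 1 unit more in dog 2 than in dog 3 in each numbered pair. With 2 arrays per dog and condition, a p that misses the threshold does not show that the dogs responded alike.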

How the data were processed

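Per the labels' protocols, 6 µg of total RNA gave biotinylated cRNA for Affymetrix arrays. Judged from their range, the values the authors deposited are log2 levels. The submitters' processing notes name Partek with no version. How features were summarized and normalized, and the array's genome build, are not stated there or in the labels, and coordinates are therefore left out. A single gene was named by 16545 features, several by 370 and none by 15476. Gene identifiers matched 15820 of the first to names of the assembly UU_Cfam_GSD_1.0. The brightest feature over the 8 arrays stood for its gene.

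The deposited log2 values were fitted in R 4.3.3 with the limma package, version 3.58.1 (lmFit, eBayes), on dog and condition as additive terms, which left 5 residual degrees of freedom. No filter was used, and p-values were adjusted over 32391 features by Benjamini and Hochberg. The script was tested on simulated data. The number of arrays, 4 per condition, limits the precision. Groups and numbers came from the titles. Deviations from the group means of same-numbered SVF and PRP arrays correlated at 0.23 in dog 2 and 0.16 in dog 3. Between the dogs they correlated about as much, at 0.201 (dog 2 SVF with dog 3 PRP) and 0.165 (dog 2 PRP with dog 3 SVF). Across the dogs within a condition they correlated more, at 0.362 for SVF and 0.399 for PRP. The numbers were taken to pair the samples, but these values do not show a pairing within a dog.

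Named genes were, in each direction, the 20 with the smallest p and 1 sign in all 4 pairs and the 10 with the largest difference at an unadjusted p below 0.05. To these came up to 3 genes per list and up to 2 per described family by smallest p, and PPBP. Further genes given with a value in the lists, CYP1A1, MORN2, MMP9 and the unnamed features were chosen after their values were seen. A family held at least 10 genes with the same letters before the first digit of the symbol, which gave 184 families. The genes named and the 32 lists were chosen with earlier results of these data known. Lists and families had no test, and 1 family is not reported here. Alternatives were models of 4 group means, without the dog, with a random effect of dog or with a term for number, a replicate block, array centring, repeated quantile normalization, a filter on dim features, eBayes with trend and robust settings, the numbers apart and each array left out.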

Additional observations from a re-analysis of the deposited data

How the results depend on the processing

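The features past the adjusted threshold numbered 1 in the reported model, 2 with 4 group means and 2 with trend and robust settings. They numbered 0 under a replicate block of the 4 numbered pairs, 0 on the number 1 arrays, 0 on the number 2 arrays and 0 to 1 with each array left out. PPBP kept its direction throughout (2.52 to 2.95) and passed in 1 of 8 models without 1 array (without the number 1 SVF array of dog 3, adjusted p 0.0461 to 0.49) and in 3 of the 11 others (0.023 to 0.412). The unnamed feature 14308441 passed in 7 of 10 other models (0.00896 to 0.412) and was not bright enough for the filter on dim features. Features higher at an unadjusted p below 0.05 numbered 1246 in the reported model, 2405 after centring, 790 on the number 1 arrays, 2831 on the number 2 arrays and 634 to 1859 with each array left out. The counts of 634 and 722 came without the number 2 SVF array of dog 3 and without the number 2 PRP array of dog 2. Features lower numbered 2451 in the reported model, 1427 after centring and 1758 to 2476 with each array left out. Genes higher in all 4 pairs went from 1907 to 3496 after centring and genes lower from 2499 to 1441. Genes with every PRP array above went from 311 to 745 (centring) and 504 (quantile), and below from 511 to 218 and 336. Of 167 named genes under 3158 combinations of gene and setting, 3150 kept direction and side of the threshold, 4 passed it (all PPBP) and 4 reversed, BNC1 (0.0017), EGFL7 (0.12) and MMP9 (-0.06) on the number 1 arrays and WT1 (0.026) on the number 2 arrays. The causes were not tested, apart from the smaller number of arrays by construction.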
